A study of Mus musculus with 27 samples.

Results

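The genes described here are 10 genes known from fibroblasts of the meninges, the membranes that wrap the brain: Dcn, Lum, Ogn, Fmod, Bgn, Islr, Slc6a13, Slc22a6, Aldh1a2 and Foxc2. They were taken by symbol, with earlier results of these data known, and each of the 10 matched 1 of the 52636 gene identifiers in the count tables. Collagen genes were kept apart. The study sequenced total RNA of frontal cortex and striatum from adult mice of about 2.5 months on the 129S1 background, wild-type or homozygous for the Igf2enh-/- allele. In that allele a 4.9 kb stretch between H19 and Igf2 is deleted and 1 loxP site is left, after an Hprt-CRE cross that removed the selection cassette. The allele is in every cell of the mouse, and a wild-type mouse with a loxP site was not among the samples. Frontal cortex gave 6 wild-type and 6 Igf2enh-/- libraries, with 3 females and 3 males of each genotype. Striatum gave 7 wild-type libraries (3 females and 4 males) and 8 Igf2enh-/- libraries (4 of each sex). Libraries are named by the number that opens their label, and the labels do not say which libraries came from the same mouse.

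The meninges consist of dura, arachnoid and pia, and the pia lies directly on the cortical surface and follows the larger vessels into the tissue. Meningeal fibroblasts lay down a matrix of collagens and small leucine-rich proteoglycans, the family of Dcn, Lum, Ogn, Fmod and Bgn, which bind collagen fibrils and growth factors. They also make retinoic acid, carry transporters for organic anions and small amino acids, and secrete insulin-like growth factor 2, the product of Igf2. In adult brain, Igf2 RNA is known mainly from the meninges, the choroid plexus and vessels.

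Total counts ran from 23686945 to 33926904 per library, so that 1 CPM (read counts scaled to a fixed library total) stood for at least 23.7 reads. Levels below are CPM scaled by trimmed mean of M-values (TMM) factors over all 27 libraries. Striatal and cortical neuron markers matched the labelled regions: all 8 striatal neuron genes tested were higher in striatum and all 6 cortical neuron genes tested were lower. Among the striatal libraries, 2 stood apart. Library 15, from the striatum of an Igf2enh-/- female, had a summed level of 4786 CPM over 18 choroid plexus genes, and no other striatal library passed 379 CPM. The choroid plexus lies in the ventricles beside the striatum and is rich in Igf2. Striatal neuron genes had their lowest sum in library 20 (wild-type, male), 3082 CPM beside 4242 to 8466 CPM in the other striatal libraries, and cortical neuron genes had their highest sum there, 1294 CPM beside 161 to 986 CPM. In library 20 the 10 fibroblast genes summed to 24.5 CPM, within the range of the other striatal libraries. A list of 42 other genes known from meninges summed to 996 CPM there, above the 652 to 794 CPM of the other striatal libraries. In frontal cortex the 18 choroid plexus genes summed to 181 to 275 CPM, most of it from Enpp2 (162 to 262 CPM), which other brain cells also express. Ttr, the transthyretin gene that defines choroid plexus epithelium, had at most 0.719 CPM there.

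The largest pattern was between the regions. All 10 fibroblast genes were lower in striatum than in frontal cortex, by between 1.22-fold for Bgn and 10.5-fold for Foxc2. The fitted log2 difference, striatum over frontal cortex, had a median of -2.17 over the 10 genes. Each of the 10 differences had an adjusted p under 0.05 in edgeR's quasi-likelihood test with Benjamini-Hochberg adjustment. Among the 13414 genes that reached 1 CPM in all 27 libraries, 38.2% were called lower in striatum, with a median log2 difference over all of them of 0.0088. Among these were 6 fibroblast genes, all called lower. Lum, Slc22a6, Aldh1a2 and Foxc2 fell below 1 CPM in at least 1 striatal library and were tested in a fit of all 36013 genes with a count, where 19.8% were called lower. The regions were fitted as if every library came from a different mouse. All 10 were also called lower without library 15 (median log2 difference -2.25) and without library 20 (median -2.18). With the filter, 5077 of 13417 and 5219 of 13419 genes were called lower in those fits. In bulk tissue, fewer fibroblasts, less of each RNA per fibroblast and a different share of RNA from other cells cannot be told apart.

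**Figure D1:**
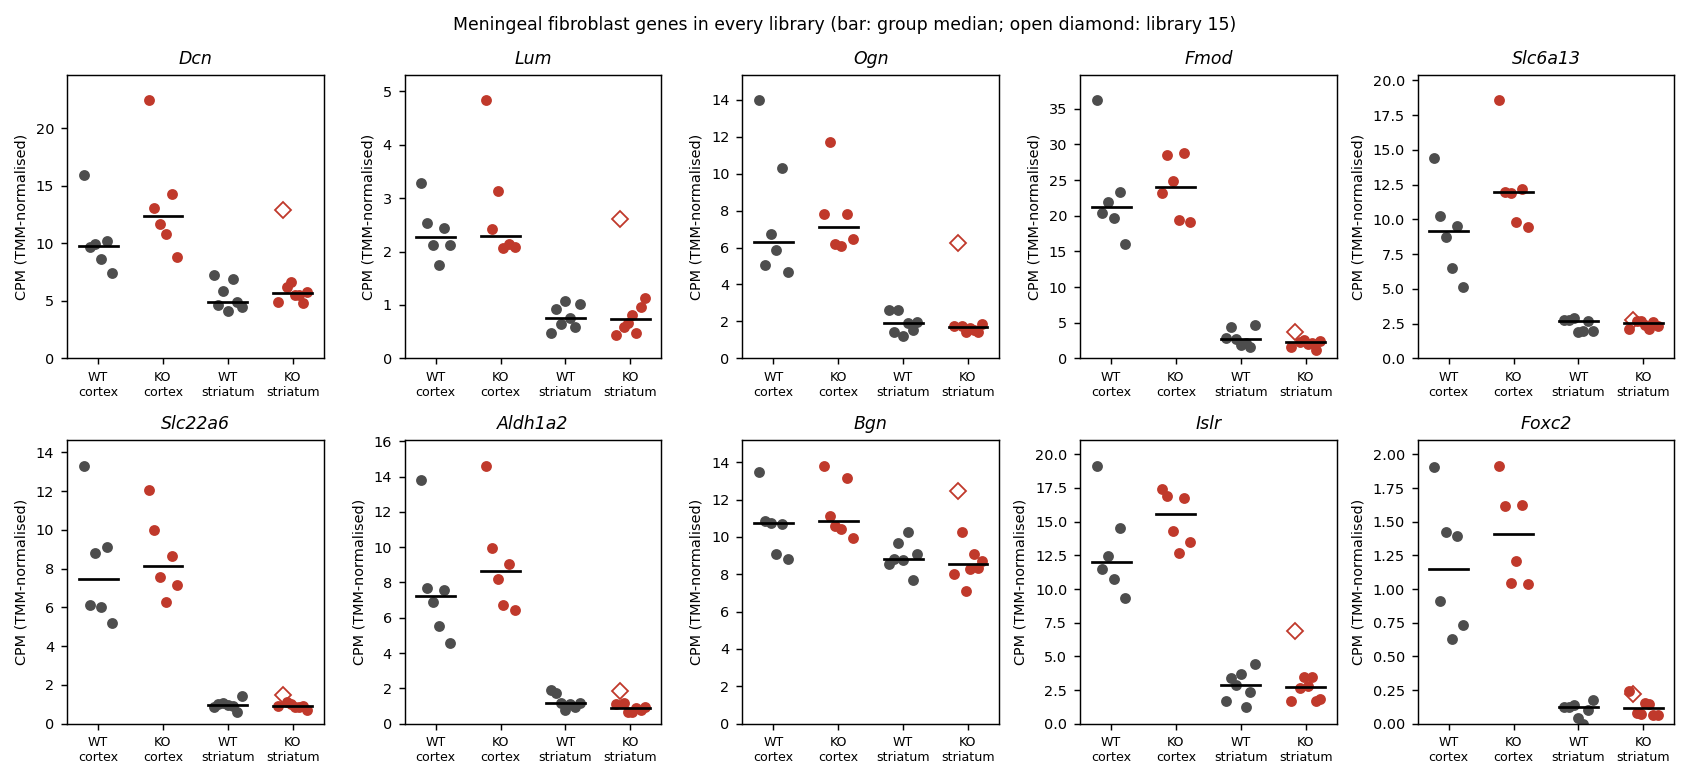
TMM-normalised CPM of the 10 genes in every library, with wild-type (WT) in grey, Igf2enh-/- (KO) in red, a bar at each group's median and an open diamond for library 15. Cortical points lie above the striatal ones for most genes, Bgn lies at about the same height in all 4 groups, and library 15 stands above the other striatal libraries for Dcn, Lum and Ogn.

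The proteoglycans differed widely in how far apart the regions were. Fmod, fibromodulin, which regulates the thickness of collagen fibrils, was the most abundant of the 10 in frontal cortex. Its level there ran from 16.0 to 36.2 CPM with a median of 22.6, against 1.23 to 4.66 CPM with a median of 2.31 in striatum. The lowest cortical library thus lay well above the highest striatal library, and the log2 difference was -3.17 (standard error 0.152, adjusted p = 1.55e-15 in edgeR). Ogn, osteoglycin, ran from 4.67 to 14.0 CPM in frontal cortex (median 6.60) and from 1.19 to 6.24 CPM in striatum (median 1.76). Lum, lumican, ran from 1.74 to 4.83 CPM (median 2.29) and from 0.444 to 2.61 CPM (median 0.752). Dcn, decorin, which binds collagen and transforming growth factor beta, ran from 7.44 to 22.5 CPM in frontal cortex (median 10.5) and from 4.15 to 12.9 CPM in striatum (median 5.54). For Dcn, Lum and Ogn the regions overlapped through library 15 alone, and without it every striatal library lay below every cortical one. The log2 differences were -1.91 for Ogn, -1.52 for Lum and -0.96 for Dcn, with standard errors of 0.203, 0.193 and 0.143. Without library 15 they were -2.10, -1.72 and -1.06.

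Bgn, biglycan, a close relative of Dcn that is also made by vessel walls, was the exception in size. Its level ran from 8.79 to 13.8 CPM in frontal cortex (median 10.7) and from 7.11 to 12.5 CPM in striatum (median 8.77), so the regions overlapped over most of their ranges. The log2 difference was -0.29 (standard error 0.0724, adjusted p = 0.000863 in edgeR). Within wild-type mice alone it was -0.22 with an adjusted p of 0.0633 in edgeR, and within Igf2enh-/- mice it was -0.35 with an adjusted p of 0.00305. Without library 15 the difference over both genotypes was -0.32, and within wild-type mice it was -0.23 with an adjusted p of 0.0354 in edgeR.

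The transporters fell with the matrix genes. Slc6a13 encodes a transporter of GABA and taurine that is found in the leptomeninges and not in neurons. It ran from 5.15 to 18.6 CPM in frontal cortex (median 10.0) and from 1.90 to 2.90 CPM in striatum (median 2.65). Slc22a6, the organic anion transporter OAT1, ran from 5.18 to 13.3 CPM (median 8.13) and from 0.583 to 1.51 CPM (median 0.929). Neither gene's ranges overlapped, and the log2 differences were -2.08 (standard error 0.106) and -3.05 (standard error 0.130), with adjusted p = 4.51e-15 and 7.65e-19 in edgeR. Aldh1a2, the enzyme that makes retinoic acid from retinaldehyde, ran from 4.60 to 14.6 CPM in frontal cortex (median 7.63) and from 0.653 to 1.89 CPM in striatum (median 1.09), again without overlap. Its log2 difference was -2.86 (standard error 0.129, adjusted p = 3.09e-18 in edgeR).

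Islr, a secreted immunoglobulin and leucine-rich repeat protein of fibroblasts, ran from 9.31 to 19.2 CPM in frontal cortex (median 13.9) and from 1.23 to 6.86 CPM in striatum (median 2.77). Library 15 held the highest striatal value, and the next highest was 4.40 CPM. The log2 difference was -2.25 (standard error 0.187, adjusted p = 4.20e-11 in edgeR). Foxc2, a forkhead transcription factor of the meningeal and vascular lineages, was the least abundant. It ran from 0.630 to 1.92 CPM in frontal cortex, which is 17 to 50 reads, and from 0 to 0.242 CPM in striatum, which is 0 to 6 reads. The fitted log2 difference of -3.39 (standard error 0.226, adjusted p = 3.54e-14 in edgeR) rests on those few striatal reads.

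In 6 of the 10 genes every striatal library lay below every cortical library, and in 9 of 10 when library 15 was left out, the exception being Bgn. Of the 16480 genes with a mean of at least 0.5 CPM, 12.6% were separated in this way with all libraries and 12.8% without library 15. In wild-type mice alone 9 of the 10 were called lower in striatum, all but Bgn, beside 33.2% of the genes tested with the filter and 15.5% without it. In Igf2enh-/- mice all 10 were called, beside 34.5% and 16.6%. Without library 15 all 10 were called in each genotype, beside 4462 (wild-type) and 4559 (Igf2enh-/-) of 13417 genes tested with the filter. No difference between those 2 regional effects passed the test: 0 of the 10 genes and 0% of the 13414 genes tested (405 with an unadjusted p under 0.05) were called for the region by genotype term. Aldh1a2 had the smallest unadjusted p of the 10 for that term, 0.0216 (log2 difference -0.64, standard error 0.264, adjusted p = 1.00 in edgeR). Without library 15 that p was 0.00644, and still 0 of the 10 were called.

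**Figure D2:**
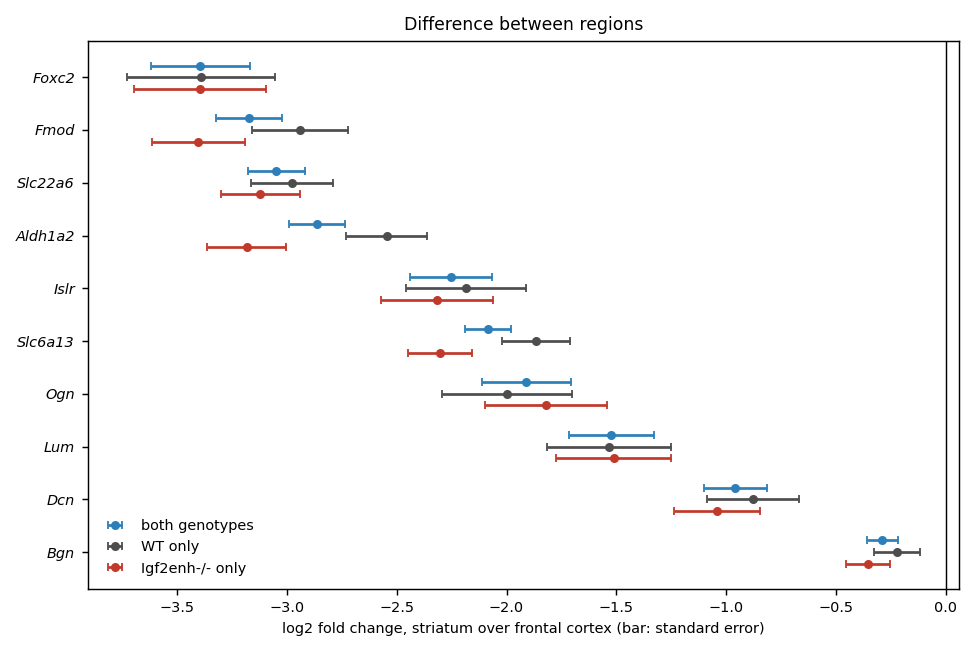
Log2 fold change of striatum over frontal cortex for each gene, over both genotypes (blue), in wild-type mice (grey) and in Igf2enh-/- mice (red), with standard errors as bars. All points lie left of 0, from Bgn at -0.29 to Foxc2 at -3.39 over both genotypes, and the genotypes lie within about a unit of each other.

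The order of the genes changed with the region. Per kilobase of exon, wild-type frontal cortex had Fmod highest at a mean of 6.94 CPM per kb, then Islr at 5.83, Dcn at 5.32, Aldh1a2 at 3.39, Slc6a13 at 3.13, Ogn at 3.06, Bgn at 2.98, Slc22a6 at 2.01, Lum at 1.14 and Foxc2 at 0.428. Ranges over the 6 libraries overlapped between all neighbours in that order except Lum and Foxc2. In wild-type striatum the order by CPM per kb began with Dcn at 2.82 and Bgn at 2.52, whose ranges overlapped. A gap without overlap followed, and then Islr at 1.26, Fmod at 0.885 and Slc6a13 at 0.831. Slc22a6 at 0.243 and Foxc2 at 0.0371 closed the order and did not overlap.

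Promoter sequences from RefSeq (GRCm38.p6, 250 bases before to 50 after the annotated start) were found for 7 of the 10 genes, in 9 windows. Windows for Dcn, Lum and Foxc2 were not among them. Shown are Fmod and Bgn, with the largest and the smallest regional difference among the 7, and Aldh1a2, which followed Igf2 most closely in frontal cortex. All 3 windows are on the plus strand, at chr1:134037004-134037303 for Fmod, chrX:73483351-73483650 for Bgn and chr9:71215539-71215838 for Aldh1a2. Capitals mark matches on either strand to GGGCGG, the letters of a GC box, to TATAAA or to TGTTTA, the core letters that forkhead factors bind.
Fmod: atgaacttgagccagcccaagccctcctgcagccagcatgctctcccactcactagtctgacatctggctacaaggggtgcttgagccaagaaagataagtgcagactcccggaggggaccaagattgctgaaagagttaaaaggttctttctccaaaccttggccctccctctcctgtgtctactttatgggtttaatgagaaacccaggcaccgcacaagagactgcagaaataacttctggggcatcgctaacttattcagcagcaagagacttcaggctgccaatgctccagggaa
Bgn: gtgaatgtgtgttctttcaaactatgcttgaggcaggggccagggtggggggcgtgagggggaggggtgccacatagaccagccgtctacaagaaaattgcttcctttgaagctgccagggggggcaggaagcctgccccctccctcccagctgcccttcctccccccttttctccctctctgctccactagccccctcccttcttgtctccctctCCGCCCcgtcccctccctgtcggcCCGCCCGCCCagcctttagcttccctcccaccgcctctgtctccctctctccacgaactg
Aldh1a2: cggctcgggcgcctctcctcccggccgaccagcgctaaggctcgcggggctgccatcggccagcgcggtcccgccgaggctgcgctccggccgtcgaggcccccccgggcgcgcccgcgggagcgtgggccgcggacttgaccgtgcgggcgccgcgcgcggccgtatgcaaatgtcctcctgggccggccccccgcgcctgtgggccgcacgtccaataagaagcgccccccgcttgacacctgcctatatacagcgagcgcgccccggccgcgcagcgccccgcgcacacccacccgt
The Bgn window held 3 matches to GGGCGG on the opposite strand, of which the last 2 overlap, and the Fmod and Aldh1a2 windows held no match to any of the 3 motifs. GC content was 51.0% for Fmod, 63.7% for Bgn and 78.0% for Aldh1a2, against a median of 52.7% over 32851 promoters, and the Aldh1a2 window had 50 CpG dinucleotides against 3 in Fmod. Over the 9 windows, 2 held GGGCGG (in Slc6a13 and Bgn), 1 held TATAAA (in Ogn) and 0 held TGTTTA. Of all promoters of this length, 35.7% held GGGCGG, 13.6% TATAAA and 13.4% TGTTTA. The count tables hold no measurement of these promoters.

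Related genes were followed on the same scale, where 39.4% of all genes tested were called higher in striatum and 38.2% lower. Of 42 other genes known from meninges, 31 could be tested between regions, and 22 were lower and 5 higher in striatum (median log2 difference -0.96). Ptgds, a prostaglandin D synthase of the leptomeninges, fell by 2.20 and Gjb2, a gap junction protein found there too, fell by 1.86 on the log2 scale (standard errors 0.121 and 0.111, adjusted p = 2.07e-14 and 8.03e-14 in edgeR). Of the 15 collagen genes tested, 7 were lower and 4 higher, with Col1a2 at -1.51 and Col1a1 at -1.04 but Col5a2 at 1.82 and Col6a1 at 1.56. Among 13 other leucine-rich proteoglycan genes, 4 could be tested and 2 were called. Prelp fell by 0.46 (standard error 0.117, adjusted p = 0.000913 in edgeR) and Chadl rose by 0.20 (standard error 0.0614, adjusted p = 0.00470). Aspn and Ecm2, which lie in the same gene cluster as Ogn on chromosome 13, had log2 differences of -0.041 and 0.080 and were not called, beside -1.91 for Ogn. Omd, the fourth gene of that cluster, had a median of 1.24 CPM in frontal cortex and 0.204 CPM in striatum and was below the filter. Kera, next to Lum on chromosome 10, had no read in any of the 27 libraries.

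Markers of vessel cells were mostly not called. Of 13 mural cell genes 3 were higher and 1 lower in striatum (median log2 difference 0.073), and of 15 endothelial genes 2 were higher and 1 lower (median 0.019). Summed endothelial levels ran from 409 to 497 CPM in frontal cortex and from 397 to 536 CPM in striatum. The genes of border macrophages, which live beside these fibroblasts, summed to 21.0 to 41.5 CPM in frontal cortex and to 15.8 to 20.6 CPM in striatum. Of the 3 that could be tested, 2 were lower: Mrc1, a mannose receptor, fell by 1.46 on the log2 scale and Stab1, a scavenger receptor, fell by 0.66 (standard errors 0.114 and 0.0668, adjusted p = 1.27e-11 and 1.43e-09 in edgeR). Cd163, another scavenger receptor, had 0.17 with an adjusted p of 0.256. Of the 12 genes of retinoic acid handling that could be tested, 8 were higher and 2 lower in striatum. The receptors Rarb and Rxrg rose by 3.96 and 5.24, while Aldh1a2 was 7.28-fold lower. Rarb is also on the list of striatal neuron markers. Of the relatives of Aldh1a2 on the retinoic acid list, Aldh1a1 had a median of 29.24 CPM in frontal cortex and 47.85 CPM in striatum. Aldh1a3 had 1.66 and 0.0808 CPM.

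Within frontal cortex the 10 genes varied together from library to library. Library 1, an Igf2enh-/- female, held the highest value of 6 genes (Dcn, Lum, Slc6a13, Aldh1a2, Bgn and Foxc2). Library 2, a wild-type female, held the highest value of the other 4 (Ogn, Fmod, Slc22a6 and Islr) and was among the top 3 for all 10. Library 12, a wild-type male, was lowest for 8 of the 10. The highest library exceeded the lowest by 3.61-fold for Slc6a13, 3.02-fold for Dcn and 1.57-fold for Bgn. After genotype means were removed, the 45 pairs of genes had Pearson correlations from 0.35 (Lum and Ogn) to 0.97 over the 12 libraries, with a median of 0.83. These pairs share libraries, depth and scaling, and the values are a description. In library 1 the genes did not keep one proportion, since Dcn was 1.41 times its level in library 2 while Ogn was 0.56 times its own.

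In striatum the 45 pairs had correlations from 0.020 to 0.88 with a median of 0.45 over 15 libraries. Without library 15 the median was 0.17 and 30 of the 45 were positive. Library 15 was highest for 6 genes (Dcn, Lum, Ogn, Slc22a6, Bgn and Islr) and among the top 3 for all 10. Its levels were 12.9 CPM for Dcn, 6.24 for Ogn and 2.61 for Lum, while the other 14 libraries reached at most 7.25, 2.62 and 1.13 CPM. For Slc6a13, Fmod, Aldh1a2 and Foxc2 other libraries were higher. The part of the choroid plexus tissue in these values was not tested.

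The genotype comparison asks whether loss of the enhancer goes with a change of these genes. In frontal cortex none of the 10 was called, and 0.380% of the 13936 genes tested were. Igf2 itself was higher, from 51.9 to 107 CPM (median 71.3) in wild-type and from 88.3 to 173 CPM (median 119) in Igf2enh-/- mice, and edgeR gave a log2 difference of 0.77 (standard error 0.134, adjusted p = 0.0285). H19 stayed at or below 0.184 CPM in every library. Fitted log2 fold changes of the 10 fibroblast genes, Igf2enh-/- over wild-type, were positive for 9 and ran from -0.013 for Ogn to 0.46 for Slc6a13, with a median of 0.23. The median over all genes tested was 0.00074. Slc6a13 had 5.15 to 14.4 CPM (median 9.14) in wild-type and 9.42 to 18.6 CPM (median 12.0) in Igf2enh-/- mice. Its log2 fold change of 0.46 (standard error 0.164) had an adjusted p of 0.244 in edgeR. Dcn had 7.44 to 15.9 CPM (median 9.81) and 8.81 to 22.5 CPM (median 12.4), and differed by 0.39 on the log2 scale (standard error 0.177), at an adjusted p of 0.351 in edgeR. The groups overlapped for both genes. In exact two-sided permutation tests of single genes, p ran from 0.104 for Slc6a13 to 0.857 for Ogn over the 10 genes, and 924 splits allow 0.00217. Tested among all 33060 genes with a count, where 0.665% were called higher, Slc6a13 and Dcn passed with adjusted p = 0.00495 and 0.0318 in edgeR. In that fit the log2 fold changes were 0.45 and 0.39 and the standard errors smaller, at 0.101 and 0.104.

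In striatum none of the 10 was called either, with 0.0360% of 13875 genes called. Log2 fold changes ran from -0.38 (standard error 0.254) for Fmod to 0.30 (standard error 0.462) for Foxc2, with adjusted p of 0.682 or more in edgeR. Dcn had 4.15 to 7.25 CPM (median 4.94) in wild-type and 4.84 to 12.9 CPM (median 5.67) in Igf2enh-/- mice. Its log2 fold change was 0.24 (standard error 0.202), and 0.047 without library 15. Ogn, Islr and Lum changed sign without that library, from 0.15, 0.13 and 0.26 to -0.20, -0.17 and -0.10. Igf2 lay above every wild-type library in all 8 Igf2enh-/- libraries, but edgeR did not call it (log2 difference 0.89, standard error 0.326, adjusted p = 0.387). That fit includes library 15, with 259 CPM of Igf2, where the next library had 61.7 CPM. The median of Igf2 was 37.05 CPM in wild-type and 51.76 CPM in Igf2enh-/- libraries. An exact two-sided permutation test of Igf2 gave p = 0.000622.

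Females had the higher fitted level of all 10 genes in frontal cortex, and whether any was called depended on the filter. Among genes that reached 1 CPM in every library, and for Foxc2 below it, none was. The log2 differences, male over female, ran from -0.62 for Aldh1a2 to -0.19 for Bgn, 6 had an unadjusted p under 0.05, and the smallest adjusted p was 0.495 in edgeR. Of the 13936 genes tested there, 1054 had an unadjusted p under 0.05 and 0.0431% were called for sex. Aldh1a2 had a standard error of 0.189, and Slc6a13 and Lum had log2 differences of -0.54 and -0.53. Tested among all genes with a count, where 0.278% were called lower in males, Aldh1a2 (adjusted p = 0.000910), Slc6a13 (0.000994), Dcn (0.0145) and Slc22a6 (0.0312) passed in edgeR. For these genes standard errors were smaller in that fit, 0.114 instead of 0.189 for Aldh1a2. RNA concentration separated the sexes in the same samples: 135 to 254 ng/µl in females and 258 to 514 ng/µl in males. Sex and RNA concentration cannot be told apart in frontal cortex. Log2 RNA concentration had a negative Pearson correlation with all 10 genes over the 12 libraries, from -0.66 (permutation p = 0.0209, Spearman's rho -0.64 with p = 0.0292) for Slc22a6 to -0.43 (p = 0.168, rho -0.45 with p = 0.141) for Fmod. Of the 10, 3 had a permutation p under 0.05 before any adjustment, with no share over all genes to set beside it. Without the 2 samples farthest from the median concentration r ran from -0.52 to -0.28, and within females and males alone its median was -0.32 and -0.21. In striatum the correlation with RNA concentration was negative for 5 of the 10, with a median r of 0.014 and 0 with a Pearson permutation p under 0.05. By Spearman's rho 3 had a permutation p under 0.05: Dcn (rho -0.54, p = 0.0420), Ogn (-0.55, p = 0.0377) and Aldh1a2 (-0.54, p = 0.0416). Without the 2 striatal samples farthest from the median concentration r ran from -0.63 to 0.17, with a median of -0.32. All 10 fitted sex differences were negative there too, and 0 were called beside 0.0432% of genes tested. An unadjusted p under 0.05 was found for 3 of them and for 1496 of the 13875 genes tested. Without library 15, a female, 3 were positive (Lum, Fmod and Islr) and 2 had such a p, beside 1206 of 13879 genes tested. The genotype by sex term called none of the 10 in either region. With the filter it called 3 of 13936 genes in frontal cortex and 0 of 13875 in striatum.

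The last question was how closely the 10 genes follow Igf2. Correlations were computed on log2 (TMM-normalised CPM + 0.5) after removing genotype means, for 20 pairs of gene and region, and p-values come from 100000 permutations of Igf2 within genotype. Sex was neither removed nor kept apart in the permutations. Like the 10 genes, Igf2 had a lower fitted level in males in frontal cortex (log2 difference -0.37, standard error 0.133). Its unadjusted p was 0.0147 and its adjusted p 0.568 in edgeR. The part of sex or RNA concentration in these correlations was not tested. In frontal cortex all 10 were positively correlated with Igf2. Pearson's r ran from 0.71 for Ogn to 0.94 for Aldh1a2 with a median of 0.89, while the median over 13935 genes tested was 0.0041 and 2.17% of them reached 0.7, as all 10 did. The closest were Aldh1a2 (r = 0.94, permutation p = 0.00013, rho = 0.85 with p = 0.00109), Slc22a6 (r = 0.94, p = 2e-05, rho = 0.93 with p = 0.00018) and Slc6a13 (r = 0.92, p = 0.00028, rho = 0.88 with p = 0.00056). Islr had r = 0.90 with p = 1e-05, the smallest these permutations can give, and rho = 0.96 with p = 4e-05. The lowest were Ogn (r = 0.71, p = 0.0171, rho = 0.81 with p = 0.00378) and Fmod (r = 0.76, p = 0.0113, rho = 0.76 with p = 0.0078). The remaining r were 0.89 for both Dcn and Bgn, 0.83 for Foxc2 and 0.77 for Lum, with permutation p of 0.0013, 0.00031, 0.00079 and 0.00555.

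Libraries 1 and 2 had Igf2 farthest from the median. Without them r ran from 0.38 for Lum to 0.88, with a median of 0.77, and 6 of 10 kept a permutation p under 0.05. Lum had a permutation p of 0.306. Dcn (r = 0.65), Ogn (r = 0.64) and Foxc2 (r = 0.68) had permutation p of 0.0559, 0.0604 and 0.0579 over the 10 libraries left. Within wild-type mice alone r ran from 0.83 to 0.99, and 9 of 10 had an exact permutation p under 0.05. Within Igf2enh-/- mice alone r ran from 0.39 for Ogn to 0.92, and 5 of 10 had one. A slope on log2 Igf2 was also fitted for every gene with genotype and sex as terms. It was positive for all 10 and had an adjusted p under 0.05 in edgeR for Aldh1a2 (slope 1.27, standard error 0.175, adjusted p = 0.0211), Slc22a6 (1.23, 0.179 and 0.0246) and Slc6a13 (1.06, 0.176 and 0.0422). Of all genes tested, 0.0933% were called with a positive slope. Islr missed at an adjusted p of 0.0501 with a slope of 0.86, and Dcn at 0.0675 with 1.11. Tested among all genes with a count, where 0.224% had a positive slope called, 7 of the 10 passed, all but Lum, Bgn and Foxc2. Standard errors of those 7 were smaller there, such as 0.269 beside 0.374 for Ogn.

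**Figure D3:**
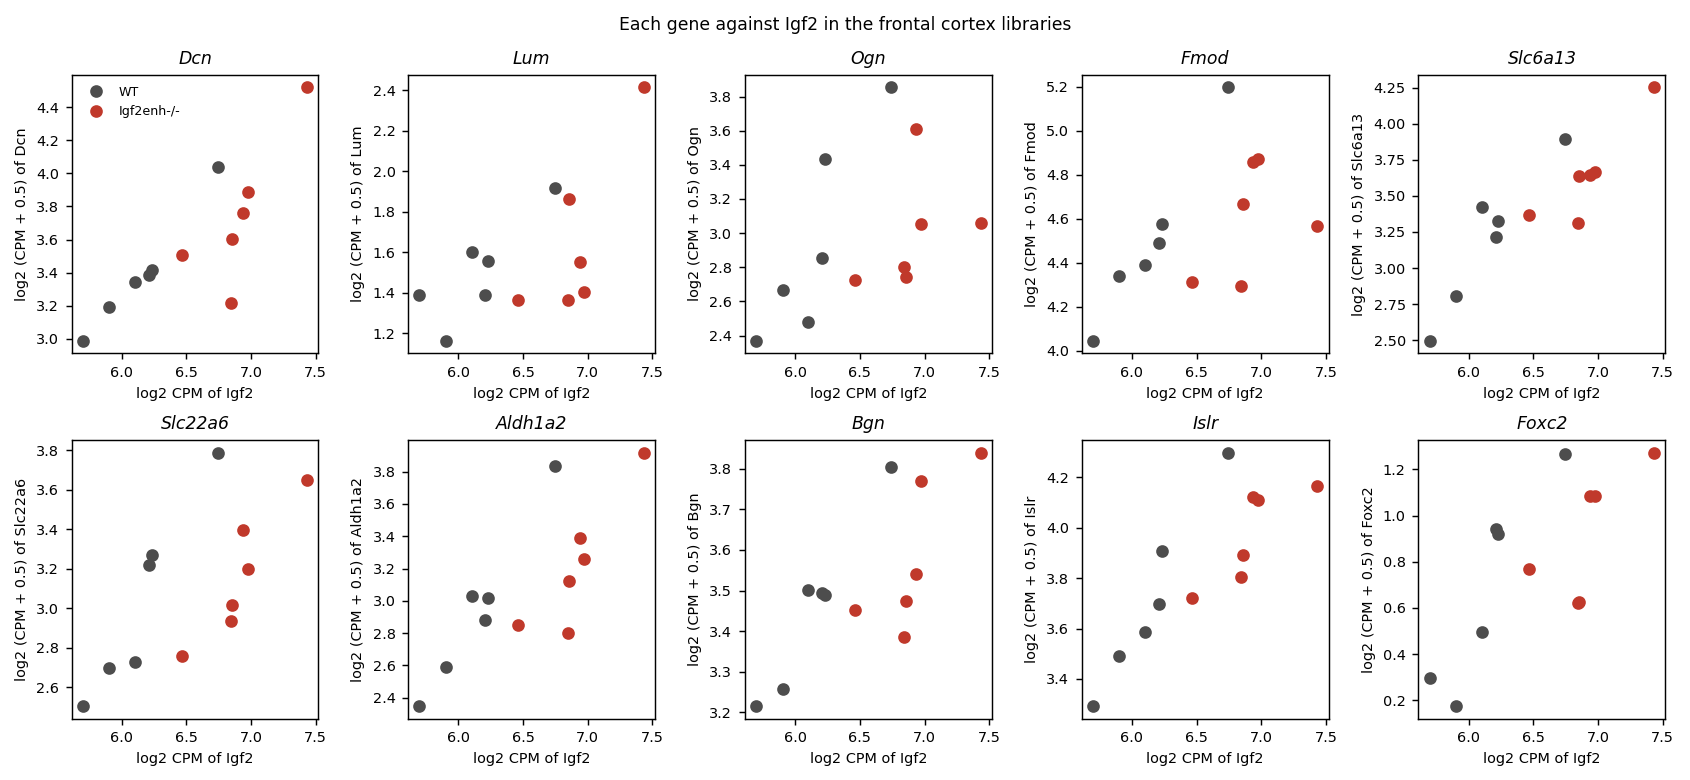
Each gene's log2 (CPM + 0.5) against log2 CPM of Igf2 in the 12 frontal cortex libraries, wild-type in grey and Igf2enh-/- in red. Both genotypes rise from left to right, with r from 0.71 to 0.94 after removing genotype means, and the red points lie to the right of the grey ones at a like level of most genes.

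At a like level of the fibroblast genes, Igf2 was higher in Igf2enh-/- cortex. The ratio of Igf2 to Dcn, each as CPM + 0.5, ran from 6.55 to 7.12 (median 6.71) over the 6 wild-type libraries. In the Igf2enh-/- libraries it ran from 7.56 to 12.4 (median 8.79), above every wild-type value. For Aldh1a2 the ratio ran from 7.53 to 10.3 (median 9.68) and from 11.5 to 16.6 (median 12.7). For Fmod it ran from 2.93 to 3.32 (median 3.17) and from 4.24 to 7.32 (median 4.52). The ratio separated the genotypes without overlap for 7 of the 10 genes (exact two-sided permutation p = 0.00217, the smallest 6 against 6 allow). For Ogn, Slc6a13 and Foxc2 the ranges overlapped and the exact p was 0.00866, 0.0108 and 0.00433. Of the 13935 genes tested, 4.92% gave a ratio to Igf2 that separated the genotypes. Igf2 enters every ratio, and the 10 tests therefore are not independent. Igf2 alone differed at an exact two-sided permutation p of 0.00433, with 5 of its 6 Igf2enh-/- values above every wild-type one. The ratio p-values cannot be read apart from that difference. The level of none of the 10 genes separated the genotypes.

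In striatum the relation with Igf2 depended in large part on library 15. Over 15 libraries r ran from 0.29 for Slc6a13 to 0.92 for Ogn with a median of 0.66, 5 of 10 had a permutation p under 0.05, and 4 reached 0.7 beside 0.887% of genes tested. Ogn had p = 0.00038 (rho = 0.75 with p = 0.00066) and Dcn r = 0.85 with p = 0.00498 (rho = 0.58 with p = 0.00807). Lum had r = 0.69 but rho = 0.025. Without library 15 r ran from -0.69 for Lum to 0.70 for Ogn, with a median of 0.33. A permutation p under 0.05 was found for 3 of 10: Ogn (p = 0.0041), Aldh1a2 (r = 0.59, p = 0.0310) and Lum with the opposite sign (p = 0.0113). Within wild-type mice alone r was positive for 8 of 10. Ogn (r = 0.95) and Dcn (r = 0.81) had exact permutation p of 0.00139 and 0.0319 there. Without libraries 15 and 27, those farthest in Igf2, the median was 0.28. The edgeR slope on Igf2 was called for Ogn (0.84, standard error 0.107, adjusted p = 0.00123) and Dcn (0.57, standard error 0.101, adjusted p = 0.0221), with 0.396% of genes called. Without library 15 both lost the call, with adjusted p = 0.954 for each in edgeR, and 0 of all 13878 genes tested were called. The slopes were then larger with wider errors, 1.725 for Ogn (standard error 0.680) and 1.377 for Dcn (standard error 0.567). Their unadjusted p in edgeR was 0.025 and 0.031. The ratio of Igf2 to the gene separated the genotypes for 4 of 10, with or without library 15, but also for 36.3% of all genes tested in striatum, since Igf2 alone separates them there.

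**Figure D4:**
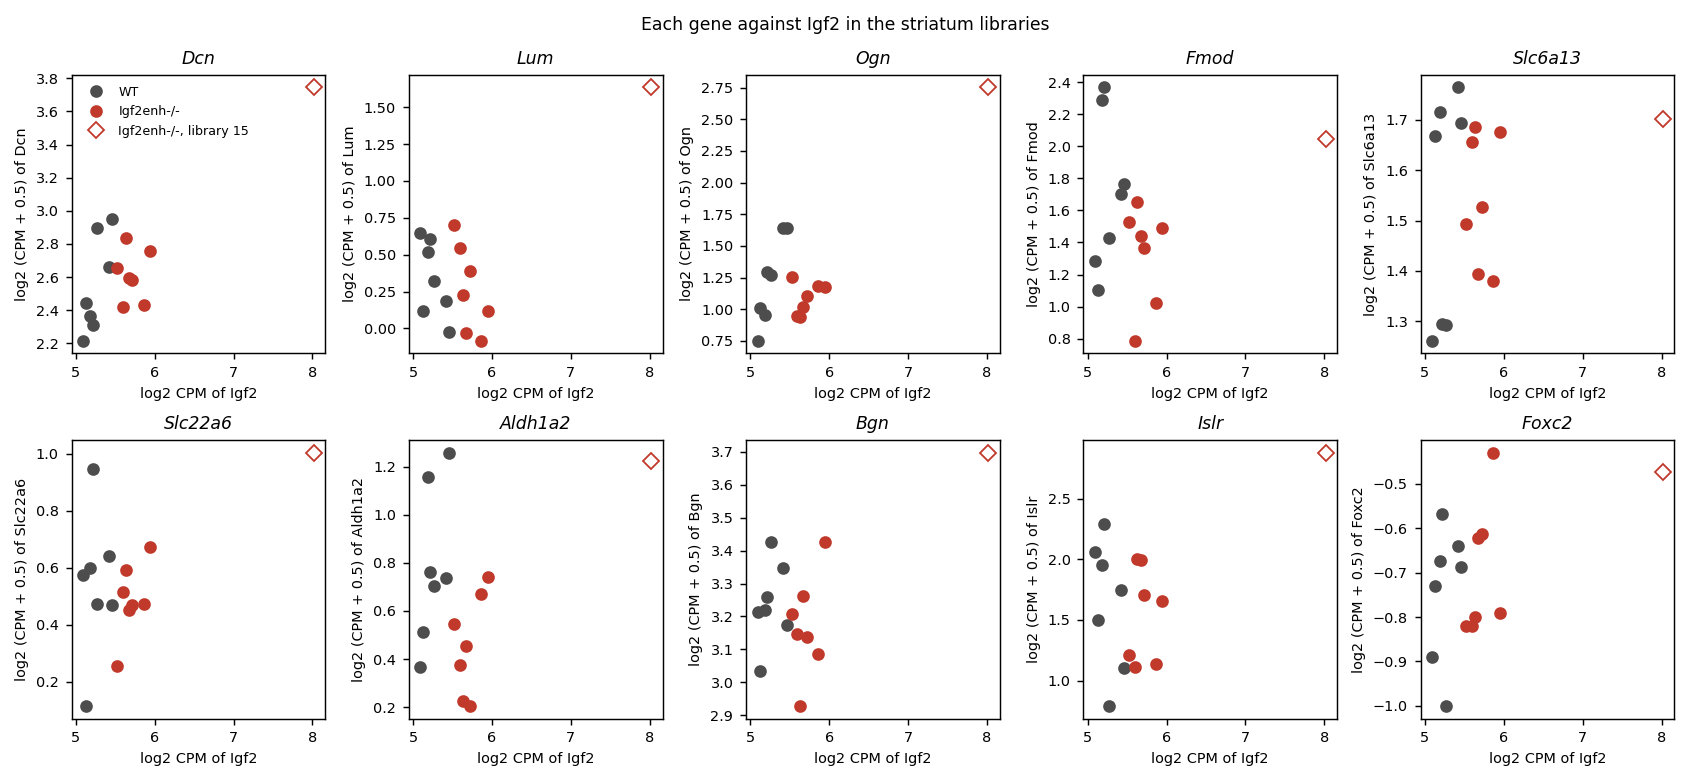
Each gene's log2 (CPM + 0.5) against log2 CPM of Igf2 in the 15 striatal libraries, wild-type in grey, Igf2enh-/- in red and library 15 as an open diamond. Library 15 lies far to the right, with Igf2 at 259 CPM where the next library had 61.7 CPM, and the other libraries show no common slope.

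The genes whose pattern was most like the mean of the 10 in frontal cortex, after removing genotype means, were Cped1 (r = 0.98), Enpp1 (0.97), Colec12, Slc6a20a, Gjb2, Slc13a4, Bmp6, Msx1, Pcolce and Ptgds (0.95), out of 13927 genes over 12 libraries. Igf2 was the eleventh with r = 0.94. In striatum the closest were Pla2g5 (0.95), Slc29a4 and Igf2 (both 0.91), Kl (0.91), Slc13a4, Galm, Myof, Tgfb2, Col18a1 and Col1a2, and Slc29a4 and Kl belong to the choroid plexus list. Without library 15 Pla2g5 was the third with r = 0.84, and Igf2 was in place 290 with r = 0.53.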

How the data were processed

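RNA of 27 mouse libraries was analysed. Per the labels, libraries were made from total RNA depleted of ribosomal RNA and sequenced as 75 bp single-end reads over 3 flow cells, and the submitters' processing notes name bcl2fastq 1.9.0, Trim Galore 0.5.0, STAR and GRCm38. The authors counted reads per GENCODE vM15 gene, and the deposited values are raw counts without a filter. The strand setting was not given in the sources used here. Of 52636 gene identifiers, 32688 had a symbol. The tables held 0 columns of other series. No 2 libraries of a group agreed within counting noise (chi-square per degree of freedom at least 2.44).

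The main test was edgeR's quasi-likelihood F-test (edgeR 4.0.16 in R 4.3.3) with TMM normalisation, sex as a term, Benjamini-Hochberg adjustment and a threshold of 0.05, for genes that reached 1 CPM in all libraries fitted, run per region for genotype and over 4 groups for region. Genes under that filter were tested among all genes with a count. Per-length levels used exon lengths of GENCODE vM1, and standard errors are the log2 fold change over the square root of F. The study gives its n for each region in mice, equal to the number of libraries, so libraries of a region were taken as separate mice. Alternatives were the likelihood ratio test, DESeq2 1.42.0, 2 other scalings, filterByExpr, no filter, no sex term and leaving out each library. The slope on Igf2, the ratios to Igf2, the RNA concentration and the correlations, slopes and counts of overlap without library 15, the regional and sex differences without libraries 15 and 20, and the sex and slope fits with no filter were chosen after seeing the data. A planned adjustment of correlations over the 20 pairs was not used, because it would rest on chosen genes alone.

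The 10 genes and the marker lists were chosen with earlier results of these data known. Named genes are the 10, Igf2, H19, up to 4 genes of smallest p per list and the 10 most alike in each region. Omd, Kera, Ttr, Aldh1a1 and Aldh1a3 were named after their values were seen. The fits were first tested on simulated data.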

Additional observations from a re-analysis of the deposited data

Results flagged for a closer look

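Library 15, from the striatum of an Igf2enh-/- female, stood farther from the other 7 libraries of its group than chance would often place it for 3 of the 10 genes and for Igf2. As a share of the group's whole range on the log2 (CPM + 0.5) scale, the distance from library 15 to its neighbour was 0.687 for Dcn, 0.544 for Lum, 0.825 for Ogn and 0.831 for Igf2. All 44 groups of gene and condition were looked at in this way, and chance flags about 1 in 20. In no frontal cortex group did a library stand out by this measure. In library 15 the summed choroid plexus level was 4786 CPM, and the summed level of the 10 fibroblast genes was 51.1 CPM, where the remaining 14 striatal libraries had 22.7 to 30.3 CPM. The part of that tissue in the values was not tested.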

How the results depend on the processing

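All 10 regional differences kept their direction and their call under every alternative that was run, and with each of the 27 libraries left out. Where all 10 had an adjusted p, none was called for genotype in either region under any alternative but 1. With no filter, 2 were called in frontal cortex, Dcn and Slc6a13. That setting also raised the number called in frontal cortex from 0 to 4 for sex and from 3 to 7 for the slope on Igf2. DESeq2 with no filter gave no adjusted p for Foxc2 in striatum, so its count over the 10 genes is missing there. The number of all genes called for genotype in frontal cortex was 53, and was 459 with no filter, 232 with the likelihood ratio test and 242 with DESeq2, and ran from 8 to 99 with single libraries left out. In striatum it was 5, and was 10 with no filter, 56 with the likelihood ratio test, 112 with DESeq2, 13 with filterByExpr and 3 without the sex term, and ran from 3 to 8. No paired analysis was possible because no 2 libraries share a number and the labels do not tie cortex and striatum libraries to a mouse.

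Fold changes for genotype near 0 changed sign. In frontal cortex, leaving out single libraries gave -0.15 to 0.22 for Ogn, -0.037 to 0.22 for Fmod and -0.010 to 0.25 for Slc22a6, and in striatum -0.10 to 0.39 for Lum, -0.20 to 0.24 for Ogn, -0.022 to 0.079 for Slc6a13, -0.12 to 0.12 for Slc22a6, -0.070 to 0.040 for Bgn and -0.17 to 0.29 for Islr. Bgn in striatum was 0.014 without the sex term, and the difference of mean log2 CPM was 0.053 for Ogn in frontal cortex and 0.010 for Slc22a6 in striatum.

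The number of genes whose correlation with Igf2 had a permutation p under 0.05 was 10 in frontal cortex, 6 without the 2 farthest libraries and 5 within Igf2enh-/- mice alone. In striatum it was 5, then 3 without the 2 farthest libraries, 2 within wild-type mice alone and 3 without library 15. The sign turned in striatum for Lum (-0.63 without the 2 farthest, -0.69 within wild-type alone, -0.69 without library 15) and Islr (-0.36, -0.47 and -0.24). Depth limits the striatal values of Foxc2 most, at 0 to 6 reads a library.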
